A study of Mus musculus with 3 samples.

Results

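Transcripts of the proteasome were described in 3 libraries of wild-type mouse vestibular cells that looked like black balls under the microscope. Members were the protein-coding rows of the deposited table whose symbol starts with Psma, Psmb, Psmc, Psmd, Psme, Psmf or Psmg and a digit, leaving out the immunoproteasome subunits Psmb8, Psmb9 and Psmb10. The rule took 48 genes of the 57180 rows in the table, 21608 of them protein-coding. By role these were 8 alpha and 8 beta subunits of the core, 6 ATPases and 11 other subunits of the cap, 6 genes of activators and an inhibitor, and 7 assembly chaperones. The remaining 2, Psmc3ip and Psme3ip1, are named after a subunit they bind and are not subunits.

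The proteasome is the barrel-shaped protease that destroys ubiquitin-tagged proteins in the cytosol and nucleus. Rings of alpha subunits gate the barrel and rings of beta subunits line it, with the proteolytic sites on Psmb5, Psmb6 and Psmb7. The cap recognises ubiquitin, unfolds the substrate with its ATPases and feeds it into the core. Macrophages and other cells exposed to interferon can exchange the catalytic subunits for the immunoproteasome forms, which alters the peptides displayed on MHC class I.

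The labels call the cells macrophages, immune cells of the vestibule, while the series title speaks of melanocytes. They give 18 such cells in all, from 9 mice with 3 mice per group, amplified with a SMART-Seq kit from oligo(dT) primers, and 1 group of 3 libraries was analysed here. Neither the age of the mice nor which cells or mice went into which library is stated, so the p-values below cover variation from library to library that could be technical. The libraries are the replicates, numbered as in the labels, and where 3 values are given they are of replicates 1, 2 and 3 in that order. Each held 14095521 to 18460546 counts. All 10 macrophage markers examined stood above 1 TPM (a transcript level per gene length, scaled to a fixed total in each library). Their summed levels were 5712 to 8943 TPM. Of 8 melanocyte markers 7 stood above 1 TPM, with summed levels of 562 to 688 TPM. Lyz2 alone gave 6490, 3513 and 3845 TPM of the macrophage sum. Csf1r (5.32, 16.3 and 16.97 TPM) and Adgre1 (3.29, 5.25 and 12.1 TPM) were the lowest macrophage markers. The highest melanocyte markers, Dct and Mlana, averaged 250 and 232 TPM. The median marker stood at 7.58 (macrophage) and 4.98 (melanocyte) on the log2(TPM + 1) scale. The sums do not decide between the label and the title. Markers of hair cells (summed 323 to 515 TPM), supporting epithelium (1736 to 2534), fibrocytes (9436 to 13214), red cells (21784 to 51505), glia (6759 to 9585), neurons (62.1 to 299) and neutrophils (16.2 to 370 TPM) were also counted. No marker of any list was at 0 in every library. In such mixed libraries, fewer cells of a type and less RNA per cell cannot be told apart, and the part of each cell type in the levels below was not tested.

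Several proteasome genes have near-identical copies elsewhere in the genome that also took counts, and these bear on the levels below. The coding sequences of the 48 members were searched in GENCODE M21 transcripts of other genes. At 90% identity over at least 50% of the coding sequence, 17 members had a copy. Beside the pair Psme2 and Psme2b, there were 28 copies, 26 of them annotated pseudogenes. Together these 28 took 11980, 10375 and 7629 counts in replicates 1, 2 and 3, beside 172420, 136276 and 121267 counts on the members. Not all of the 28 are separate places: Gm26938 overlaps its own parent Psmg3, and A730017L22Rik spans Gm14048, both matching Psmd11. The rule for reads that match several genes was not stated.

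The following coding stretches of 120 bases, from GENCODE M21 (GRCm38) transcripts and written on the coding strand, show how alike 3 members and a well-counted copy of each are. Psma3, an alpha subunit gene on chromosome 12, and its processed pseudogene Gm13835 on chromosome 6 did not differ over 662 aligned bases. The window shown starts at coding base 104 of Psma3.
Psma3: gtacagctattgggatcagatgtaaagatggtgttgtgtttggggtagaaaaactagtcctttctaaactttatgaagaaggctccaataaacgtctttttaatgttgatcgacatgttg
Gm13835: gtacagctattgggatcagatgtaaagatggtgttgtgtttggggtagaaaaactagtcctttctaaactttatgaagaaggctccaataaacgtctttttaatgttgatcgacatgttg

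Psme2, a chain of the PA28 activator on chromosome 14, and Psme2b, its single-exon copy on chromosome 11, differed at 5 of 717 bases. Capitals mark the 3 bases that differ in the window with the most differences, which starts at coding base 424 of Psme2.
Psme2: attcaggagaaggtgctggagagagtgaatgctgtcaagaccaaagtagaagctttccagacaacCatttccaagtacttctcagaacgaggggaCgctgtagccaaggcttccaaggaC
Psme2b: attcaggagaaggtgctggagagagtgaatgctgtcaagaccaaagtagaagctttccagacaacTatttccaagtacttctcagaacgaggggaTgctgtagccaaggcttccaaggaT

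Psma5 on chromosome 3 and its pseudogene Psma5-ps on chromosome 10 differed at 8 of 723 bases. Capitals again mark the 3 differing bases of the window shown, which starts at coding base 515 of Psma5.
Psma5: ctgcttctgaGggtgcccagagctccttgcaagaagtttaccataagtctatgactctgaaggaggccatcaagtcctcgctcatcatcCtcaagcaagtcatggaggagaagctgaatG
Psma5-ps: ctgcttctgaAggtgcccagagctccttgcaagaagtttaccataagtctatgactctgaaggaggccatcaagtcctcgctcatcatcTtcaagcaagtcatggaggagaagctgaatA

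Proteasome transcripts were abundant. The members took 0.934%, 0.903% and 0.860% of all counts in replicates 1, 2 and 3. Of the 48, 46 stood above 1 TPM in limma's one-sided test of the mean log2(TPM + 1) over the 3 libraries, at a Benjamini-Hochberg adjusted p threshold of 0.05. The same test called 37.6% of all 27265 genes tested and 50.5% of the protein-coding ones. Against 10 TPM, 36 members were called, beside 14.7% of all genes and 19.2% of protein-coding genes tested. The median member stood at 6.41 on that log2 scale, and at 90.02 TPM, beside 2.24 TPM for the median of all genes tested and 4.55 TPM for protein-coding genes.

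**Figure D1:**
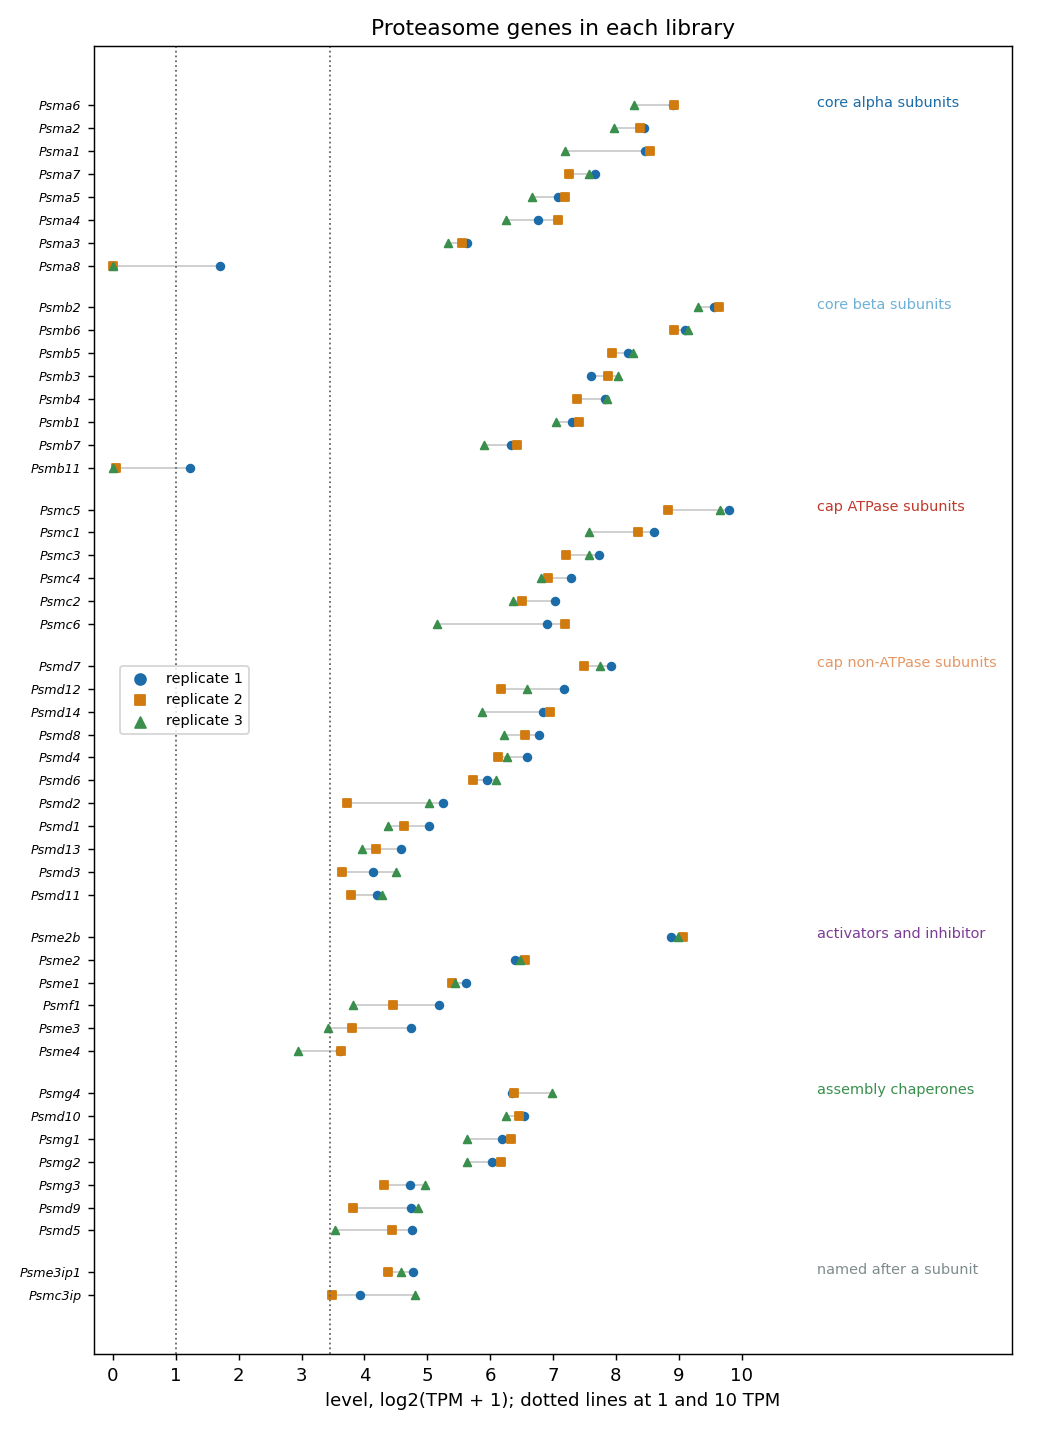
Level of each of the 48 genes in each library on the log2(TPM + 1) scale, grouped by role and ordered by mean TPM within a role; each point is 1 library, and the dotted lines mark 1 and 10 TPM. Core subunits and cap ATPases lie right of the 10 TPM line in every library, except Psma8 and Psmb11. Both of these stand at or near 0 in replicates 2 and 3.

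The order of levels between genes depends on the gene length used. The length behind the deposited FPKM (fragments per kilobase, scaled to depth) was a median 2.56 times the principal mRNA of GENCODE M21 for the members, with a range of 1.00 to 5.89, and 2.04 times over all genes compared. With the principal mRNA length in place of it, 43 members stood above 10 TPM. Without any length (CPM, counts scaled to library size), 45 passed 10 CPM. Over all genes, 4459 passed 10 TPM with the mRNA length and 6608 passed 10 CPM, against 4017 with the deposited length. The count of members above 1 TPM, or 1 CPM, was 46 in each case.

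Core alpha subunits, which form the outer rings and the gate, came to a median level of 7.17 ± 0.23 on the log2(TPM + 1) scale (SD, n = 3 libraries, as for other levels). Of the 8, 7 passed both tests. Psma6 was highest, at 481, 485 and 312 TPM. Psma2 followed at 347, 332 and 251 TPM, and Psma1 at 351, 370 and 144 TPM. These 3 genes shared their order over the libraries only in that replicate 3 was lowest. Psma7 averaged 181 ± 26.8 TPM, Psma5 127 ± 23.5 TPM and Psma4 106 ± 29.7 TPM. The order changed with the principal mRNA length: Psma1 averaged 528 TPM, Psma7 521 TPM, Psma6 465 TPM and Psma2 250 TPM.

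Psma3 was the lowest of the alpha subunits called, at 48.6, 45.7 and 39.3 TPM (chromosome 12, 71021395 to 71043121; positions here are those of the table, whose build is GRCm39 per the submitters' processing notes). Its counts of 2255, 1932 and 1628 stood beside 6958, 6184 and 3976 counts on Gm13835 (chromosome 6, 31118914 to 31119598), the copy printed above. Every library thus held fewer counts on Psma3 than on Gm13835, at ratios of 0.324, 0.312 and 0.409. With the counts of its 3 copies added and its own length kept, Psma3 would stand at 178 TPM on average. The long noncoding gene 3110056K07Rik overlaps Psma3 and took 376, 475 and 426 counts, and the labels do not say whether strand was used in counting.

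Psma5 likewise had 1538, 1513 and 1024 counts, beside 1057, 998 and 641 on its copy Gm12989 (chromosome 4) and 834, 853 and 496 on Psma5-ps (chromosome 10). The ratio of Psma5 to Psma5-ps lay between 1.77 and 2.06, and that of Psma5 to Gm12989 between 1.46 and 1.598. Parent and copy thus kept a like ratio in all libraries, while the level of Psma5 itself differed by a factor of 1.45 between them.

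Psma8, the testis form that replaces Psma7 in germ cells, was not called. It had 80 counts in replicate 1 and 0 in replicates 2 and 3, where a count of 0 allows up to 0.199 and 0.213 CPM. These limits cover counting error only.

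**Figure D2:**
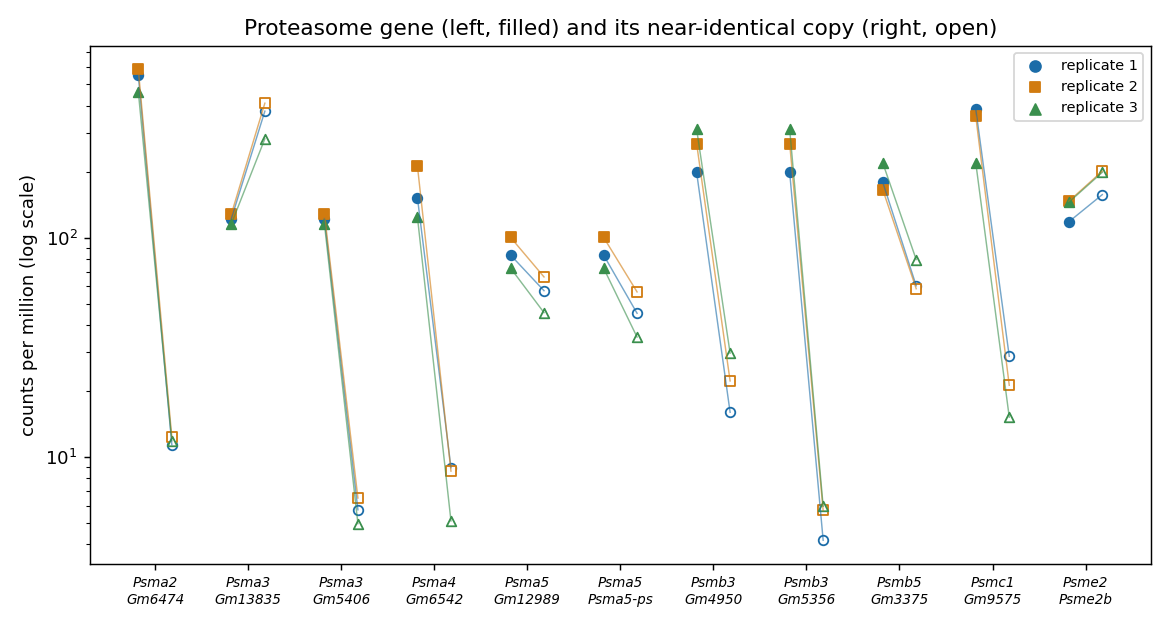
CPM on a log scale for each member (filled, left) and a copy with a mean of at least 10 TPM (open, right), joined by library. Psma3 lies below Gm13835 and Psme2 below Psme2b in every library; elsewhere the member is higher.

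Core beta subunits had the highest median level of the 6 roles, 7.76 ± 0.16 on the log2(TPM + 1) scale, although in CPM, without length, the cap ATPases were higher (8.16 against 7.95). Of the 8, 7 passed both tests, and the exception was Psmb11. Psmb2, a structural subunit of the inner ring (chromosome 4, 126571423 to 126603507), had the highest mean of the 48 genes, 727 ± 84.8 TPM, at 757, 793 and 631 TPM. The cap ATPase Psmc5 averaged 715 ± 233 TPM and was above Psmb2 in replicates 1 and 3. With the principal mRNA length Psmb2 ranked below Psmb6. Psmb3 averaged 229 ± 33.9 TPM, Psmb4 207 ± 36.4 TPM and Psmb1 152 ± 18.7 TPM.

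The 3 catalytic subunits were at unlike levels. Psmb6, with the caspase-like site (chromosome 11, 70416193 to 70418684), stood at 549, 486 and 565 TPM. Psmb5, with the chymotrypsin-like site that bortezomib blocks (chromosome 14, 54851576 to 54855479), stood at 293, 243 and 307 TPM. Psmb7, with the trypsin-like site (chromosome 2, 38478048 to 38534099), stood at 79.8, 84.6 and 58.8 TPM. Their ranges did not overlap, and Psmb6 was highest and Psmb7 lowest in each library. A ring without immunoproteasome forms holds equal numbers of the 3. The order was the same with the principal mRNA length, at averages of 1239 TPM for Psmb6, 284 TPM for Psmb5 and 136 TPM for Psmb7. Psmb5 had 3306, 2499 and 3091 counts, beside 1113, 882 and 1119 on its pseudogene Gm3375 (chromosome 7, 98.9% identity), at ratios of 2.97, 2.83 and 2.76.

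Over the 14 core subunits called, the mean level ran from 44.5 TPM for Psma3 to 727 TPM for Psmb2, a ratio of 16.3. With the counts of copies added to their parents the lowest was Psmb7 at 74.4 TPM and the ratio 9.77. With the principal mRNA length the ratio was 21.2, between Psmb6 and Psma3.

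The immunoproteasome and tissue-specific counterparts were set beside the common subunits in each library. Psmb5 stood above its immune counterpart Psmb8 by 2.69 ± 0.13 on the log2(TPM + 1) scale (SD, n = 3), at 293, 243 and 307 TPM for Psmb5 and 39.9, 38.5 and 49.4 TPM for Psmb8. Psmb6 stood above Psmb9 by 6.28 ± 0.62, with Psmb9 at 3.80, 4.83 and 10.5 TPM. Psmb7 stood above Psmb10 by 0.58 ± 0.43, with Psmb10 at 37.3, 67.5 and 45.9 TPM. Replicate 1 carried that mean, which was 0.34 without it. The common subunit was higher in 3 of 3 libraries for each pair, by margins as small as 0.32 for Psmb7 over Psmb10. A two-sided exact sign-flip permutation test over the libraries gave p = 0.25 for each pair, or 0.25 adjusted over 5 pairs, and 3 libraries cannot give a smaller one. The margin of Psmb5 over Psmb8 was 1.76 with the principal mRNA length and 0.91 in CPM without length.

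Psmb11, the thymus form of Psmb5, had 48, 1 and 0 counts in replicates 1, 2 and 3 and lay 7.71 ± 0.67 below Psmb5 on the log2(TPM + 1) scale. Psma8 lay 6.93 ± 0.85 below Psma7 on that scale. These sizes are set largely by the pseudocount: they were 10.04 and 9.29 with a pseudocount of 0.1, and 5.71 and 5.03 with a pseudocount of 5. Both differences had the same sign in 3 of 3 libraries (exact sign-flip permutation p = 0.25, adjusted p = 0.25). Psmb11 lies at 54858890 to 54867013 on chromosome 14, next to Psmb5. Replicate 1 held all but 1 of the Psmb11 counts and all 80 Psma8 counts.

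**Figure D3:**
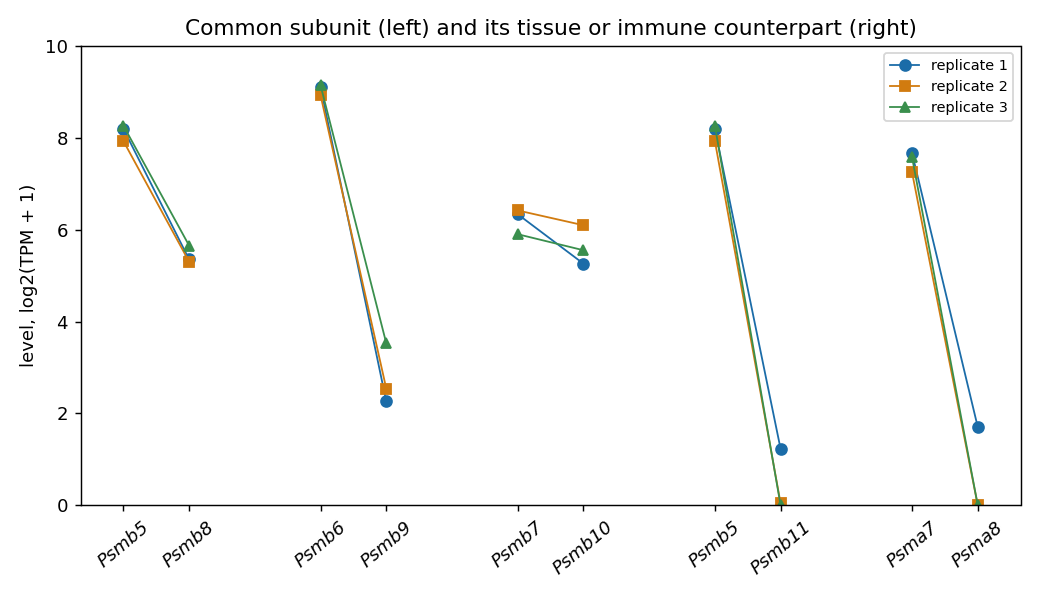
Level on the log2(TPM + 1) scale of each common subunit (left of a pair) and its immune or tissue counterpart (right), with lines joining the values of 1 library. Psmb7 and Psmb10 lie closest, 0.32 to 1.08 apart, and Psmb11 and Psma8 lie at or near 0 in replicates 2 and 3.

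Cap ATPases, the ring that unfolds substrates and opens the gate, had a median level of 7.30 ± 0.18 on the log2(TPM + 1) scale, and all 6 passed both tests. Psmc5 was highest at 893, 451 and 801 TPM. Psmc1 stood at 390.0, 325 and 190.1 TPM, and Psmc3, Psmc4 and Psmc2 averaged 182 ± 32.4, 129 ± 23.5 and 101 ± 26.1 TPM. Psmc6 had the lowest mean of the 6, 99.2 ± 57.5 TPM, close to that of Psmc2, and in replicate 2 it was above Psmc2 and Psmc4. It varied most of all members with a mean of at least 10 TPM. Psmc6 stood at 119, 145 and 34.6 TPM, a factor of 4.18 between the highest and lowest library. Replicate 1 was highest for 5 of the 6 ATPases in TPM, Psmc6 being the other, and for 3 of them in CPM. In TPM it was also highest for 45.0% of all 4017 genes called above 10 TPM and 48.7% of the protein-coding ones.

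The other cap subunits, which form the base scaffold and the lid, lay lower, at a median of 5.85 ± 0.12 on the log2(TPM + 1) scale. All 11 were above 1 TPM and 7 above 10 TPM. Psmd7 was highest at 241, 179 and 213 TPM. It is the partner of Psmd14, the enzyme that cuts ubiquitin chains off the substrate, which stood at 113, 123 and 57.6 TPM. Psmd12 averaged 103 ± 36.3, Psmd8 92.0 ± 17.6, Psmd6 60.0 ± 7.92 and Psmd1 25.0 ± 5.90 TPM. Psmd1 did not pass against 10 TPM without replicate 1 (limma, adjusted p = 0.107). The ubiquitin receptor Psmd4 averaged 79.9 ± 13.3 TPM. With the principal mRNA length Psmd4 averaged 242 TPM, above Psmd7 at 194 TPM.

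The 4 cap subunits not called above 10 TPM were Psmd2, Psmd13, Psmd3 and Psmd11. Psmd2, the large scaffold subunit that receives shuttle factors, stood at 37.2, 12.3 and 31.5 TPM (limma against 10 TPM, adjusted p = 0.0636), and it passed without replicate 2 (adjusted p = 0.00048) and with TMM scaling (0.0447). Psmd13 averaged 18.2 ± 4.33 TPM (limma, adjusted p = 0.0728, or 0.0334 without replicate 3). Its locus overlaps Sirt3, with 1332, 525 and 571 counts, and the pseudogene Gm15542, with 1906, 1705 and 1677, beside 1153, 784 and 650 of its own. Psmd3 averaged 16.6 ± 5.06 TPM and Psmd11 16.1 ± 2.94 TPM. With the principal mRNA length all 4 passed, at 34.9 to 36.9 TPM. Over the 17 cap subunits the ratio of the highest, Psmc5, to the lowest, Psmd11, was 44.3 with the deposited length and 14.8 with the mRNA length.

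**Figure D4:**
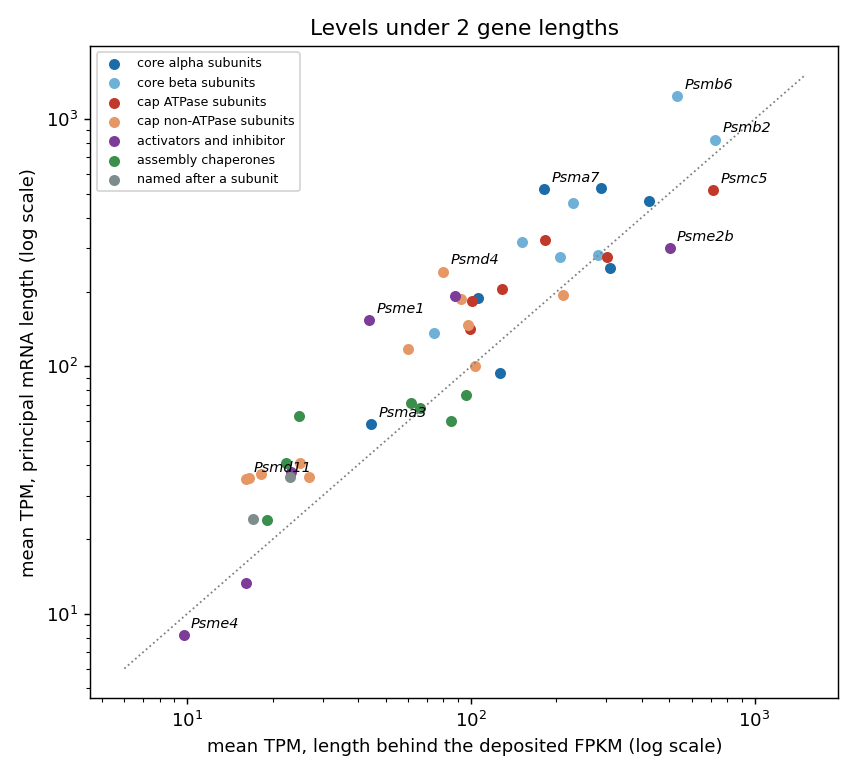
Mean TPM of each member above 1 TPM with the length behind the deposited FPKM (x, log scale) and with the principal mRNA length (y, log scale), coloured by role; the dotted line marks equal values. Psme1, Psmd4 and Psma7 lie well above the line and Psme2b below it, while Psma3 is the lowest core subunit on both axes.

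Activators dock on the core in place of the cap. Psme1 and Psme2 encode the interferon-inducible PA28 chains, Psme3 its nuclear relative, Psme4 the large activator PA200, and Psmf1 the inhibitor PI31. All 6 genes of this role were above 1 TPM and 3 above 10 TPM, with a median level of 4.99 ± 0.39 on the log2(TPM + 1) scale, or 4.49 without Psme2b. Psme1 stood at 48.2, 40.9 and 42.4 TPM, and Psme2 at 83.4, 92.9 and 87.7 TPM. Both were among the 5 members that varied least, Psme2 by a factor of 1.11 between libraries and Psme1 by 1.18. The locus of Psme1 overlaps Emc9, which took 834, 692 and 999 counts beside 2342, 1809 and 1839 on Psme1.

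Psme2b (chromosome 11, 48836181 to 48837017) stood at 466, 536 and 505 TPM, above its parent Psme2 (chromosome 14, 55824898 to 55828570) in every library. Its counts were 2898, 3032 and 2796, beside 2178, 2208 and 2042 on Psme2, at ratios of 1.33, 1.37 and 1.37. The length behind the deposited FPKM was 837 bases for Psme2b and 3518 for Psme2. With the principal mRNA length the averages were 300 TPM for Psme2b and 192 TPM for Psme2. How reads that match both genes were assigned was not stated. Psme2b varied by a factor of 1.15 between libraries in TPM, and both genes were highest in replicate 2.

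Psme3 stood at 25.7, 13.0 and 9.68 TPM and Psmf1 at 35.3, 20.98 and 13.1 TPM. Both were highest in replicate 1 and lowest in replicate 3, and neither passed against 10 TPM (limma, adjusted p = 0.459 and 0.0754). Psmf1 passed without replicate 3 (adjusted p = 0.0039). Psme4, the lowest of the 46 genes called, stood at 11.16, 11.34 and 6.66 TPM.

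Assembly chaperones guide the subunits into rings and leave the finished particle. The 7 had a median level of 5.94 ± 0.28 on the log2(TPM + 1) scale, all above 1 TPM and 5 above 10 TPM. Psmg4 was highest at 80.7, 81.9 and 125 TPM. Its partner Psmg3 stood at 25.3, 18.9 and 30.1 TPM, and replicate 3 was highest for both. Without replicate 1, Psmg3 did not pass against 10 TPM (limma, adjusted p = 0.0954). The other pair, Psmg1 and Psmg2, was lowest in replicate 3, at 71.5, 79.2 and 48.5 TPM for Psmg1 and 64.3, 71.1 and 48.5 TPM for Psmg2. The members of each pair are known to act as a dimer.

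Among chaperones of the cap base, Psmd10, also called gankyrin, varied little at 92.2, 87.2 and 75.5 TPM. Psmd9 averaged 22.3 ± 8.04 TPM and Psmd5 19.2 ± 7.88 TPM, and neither passed against 10 TPM (limma, adjusted p = 0.0569 and 0.158). Psmd9 passed without replicate 2 (adjusted p = 0.00565) and Psmd5 without replicate 3 (0.00833). Psmc3ip, a meiotic recombination protein, averaged 17.1 ± 8.70 TPM, and Psme3ip1, which binds Psme3, 23.0 ± 3.34 TPM. Psme3ip1 passed against 10 TPM, though not without replicate 1 (limma, adjusted p = 0.115), and Psmc3ip did not. The neighbour Mlx, which overlaps Psmc3ip, took 600, 586 and 141 counts beside 322, 210 and 542. Rspry1, which overlaps Psme3ip1, took 760, 174 and 351 counts beside 1471, 1001 and 1140. Cutal, which overlaps Psmd5, took 187, 176 and 166 counts beside 1788, 1297 and 647.

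The 36 members above 10 TPM had a median SD of 0.27 on the log2(TPM + 1) scale, beside 0.42 for all 4017 genes called by the same test. Their median level was 104 TPM, beside 64.2 TPM, and no test of the difference was made. The call itself left out members with a large spread, such as Psmd2, Psmf1, Psme3 and Psmd5, with an SD of 0.64 to 0.82. Of the 36, 52.8% were lowest in replicate 3 and 19.4% highest there, beside 42.4% and 35.4% of the 4017 genes, and 45.8% and 29.97% of the protein-coding ones among them. The library with the highest value depended on the scaling: of the 46 members called above 1 TPM, 11 were highest in replicate 3 in TPM, 17 in CPM, 7 with TMM and 6 with DESeq2 scaling.

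The library with the lowest value was counted within each role, with no test between roles. Of the 7 alpha subunits called, 6 were lowest in replicate 3, the exception being Psma7. Of the 7 beta subunits called, 3 were lowest in replicate 2, 3 in replicate 3 and Psmb3 in replicate 1 (2, 4 and 1 with TMM or DESeq2 scaling). Of the 11 other cap subunits, 7 were lowest in replicate 2 and 4 in replicate 3, and 41.8% of all 4017 genes above 10 TPM were lowest in replicate 2. The alpha count stayed at 6 with edgeR's TMM and DESeq2's scaling and in CPM, while 6 of the 11 other cap subunits were lowest in replicate 2 under both scalings and 7 in CPM. The largest spread was in Psmc6, Psmd2, Psma1, Psmf1 and Psme3 and the smallest in Psme2, Psme2b, Psmb6, Psme1 and Psmd10. Mitochondrially encoded genes took 2.40%, 5.40% and 2.60% of counts in replicates 1, 2 and 3, and summed neuron markers stood at 68.5, 62.1 and 299 TPM. Summed red cell markers stood at 21784, 29971 and 51505 TPM, and neutrophil markers at 16.2, 370 and 139 TPM. The part of these in the low values of replicates 2 and 3 was not tested.

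**Figure D5:**
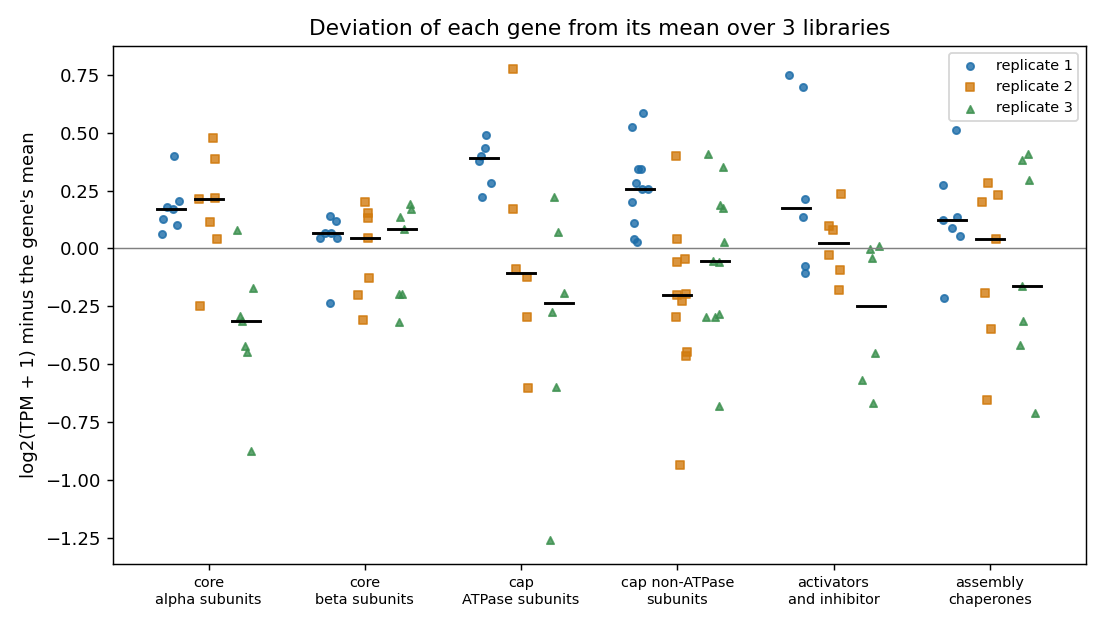
Deviation of each gene called above 1 TPM from its own mean over the libraries, on the log2(TPM + 1) scale, by role; points are genes, symbols are libraries and black bars are medians over genes. Alpha subunits lie below 0 in replicate 3 for 6 of 7 genes.

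Genes that work with the proteasome were read from lists of related genes. The same tests called 37.6% of all genes tested and 50.5% of protein-coding ones above 1 TPM, and 14.7% and 19.2% above 10 TPM. Of the 4 immune and thymus counterparts, all but Psmb11 stood above 1 TPM. Of 12 genes of other bound proteins and chaperones, 11 were matched by symbol and Paaf1 was not analysed here. Of the 11, 10 stood above 1 TPM and 5 above 10 TPM. Sem1, the smallest lid subunit, stood at 139, 175 and 295 TPM, and Pomp, the maturation factor of the core, at 133, 73.2 and 145 TPM. Zfand5, a stimulator of the proteasome, stood at 9.62, 2.85 and 0.523 TPM and was not called with all libraries (limma, adjusted p = 0.202). It was called without replicate 3 (0.0193).

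Ubiquitin genes were led by Ubb, which encodes a chain of fused ubiquitin units and whose near-identical repeats make its count uncertain. Ubb stood at 9283, 6551 and 5233 TPM, highest in replicate 1 and lowest in replicate 3. Of the 6 genes of ubiquitin and its activating enzymes, 5 were above 1 TPM and 4 above 10 TPM. Uba6, the second activating enzyme, stood at 1.76, 4.30 and 3.78 TPM and was not called (limma, adjusted p = 0.0726), although it passed with a pseudocount of 0.1 (0.0307) and in CPM (0.00118).

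Shuttle factors and the p97 unfolding machine had 9 of 10 genes above 1 TPM and 6 above 10 TPM. The segregase Vcp stood at 63.6, 44.7 and 85.6 TPM and the shuttle Ubqln2 at 45.9, 40.7 and 51.7 TPM. Ddi2, the protease that activates the Nfe2l1 protein, stood at 1.85, 0.0637 and 5.15 TPM and was not called (limma, adjusted p = 0.492).

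Nfe2l1 encodes the transcription factor that raises proteasome genes when the protease is impaired. Of the 6 genes listed for transcriptional control, 5 stood above 1 TPM and 1 above 10 TPM. The share above 10 TPM was close to the 14.7% of all genes and 19.2% of protein-coding genes tested. The 2 highest were Nfe2l2 (106, 69.4 and 47.3 TPM) and Nfyc (35.4, 20.8 and 11.20 TPM). Nfe2l1 itself stood at 8.07, 3.31 and 13.8 TPM, and Nfya, a subunit of the CCAAT-binding factor, was not called at 0.141 TPM on average.

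Promoter letters were read because Nfe2l1 is known to bind antioxidant response elements at proteasome genes. RefSeq promoters (GRCm38.p6, 250 bases before to 50 after the start) were matched by symbol for 40 of the 48 members, with 44 promoters. The element, searched as TGANNNNGC on both strands, was in 56.8% of member promoters and in 41.3% of all 32851 promoters. CCAAT was in 34.1% of member promoters and in 37.4% of all. The ETS-type letters CCGGAAG were in 38.6% of member promoters and in 8.86% of all. Motifs were searched separately, so matches may overlap. No test was made, and a match is not a binding site. The upstream 250 bases of the catalytic subunits Psmb5 and Psmb6 each hold 1 match to the element, in capitals. The promoters of Psmb7 and of Psmb2, the highest member, were not among the 44. Psmc5 had no match to the element and Psmb11 had 1, and a relation of matches to level was not tested. Psmb5 is read from the minus strand of chr14:54617996-54618245 and Psmb6 from the plus strand of chr11:70525107-70525356.
Psmb5: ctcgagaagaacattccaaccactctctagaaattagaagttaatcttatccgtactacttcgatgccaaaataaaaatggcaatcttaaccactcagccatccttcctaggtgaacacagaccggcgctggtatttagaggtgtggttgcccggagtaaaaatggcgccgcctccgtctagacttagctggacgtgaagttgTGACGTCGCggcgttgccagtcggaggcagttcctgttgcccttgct
Psmb6: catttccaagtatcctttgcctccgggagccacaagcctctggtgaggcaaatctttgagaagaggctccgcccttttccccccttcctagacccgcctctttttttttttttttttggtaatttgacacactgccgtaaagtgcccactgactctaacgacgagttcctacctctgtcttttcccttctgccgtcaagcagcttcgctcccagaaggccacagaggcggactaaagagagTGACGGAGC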

How the data were processed

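Counts per gene and FPKM were used as the authors deposited them, with a column of each per library in the file headers. Per the submitters' processing notes the tools were HISAT2, StringTie and edgeR and the build GRCm39, without versions or roles, and coordinates are those of the table. FPKM was rescaled to TPM in each library and log2(TPM + 1) was tested with limma 3.58.1 (R 4.3.3; intercept only, mean-variance trend, one-sided against 1 and 10 TPM) over the 27265 genes counted in any library, after the procedure had been tested on simulated data. The 525 rows without a symbol were kept. Alternatives used edgeR 4.0.16 and DESeq2 1.42.0 scaling, and the principal mRNA (APPRIS, the longest where several share the best rank) of GENCODE M21. Copies were found with blastn 2.17.0 and aligned with Biopython 1.88. The members and lists were chosen with earlier results of these data known. Every member is named, and of each related list the genes not called and the 2 highest, of which 1 is not reported here. The copy search, the mRNA length and the motifs were added after seeing the data. PCR copies carry no molecular identifiers, so depth (14095521 to 18460546 counts) sets counting error only.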

Additional observations from a re-analysis of the deposited data

How the results depend on the processing

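The 46 members above 1 TPM numbered 46 under every alternative tried, with CPM tested against 1 CPM. Alternatives were CPM, pseudocounts of 0.1 and 5, genes counted in all 3 libraries, and TMM and DESeq2 scaling. Limma without trend, mRNA length and each library left out were also tried. Members above 10 TPM numbered 33 to 43, with 33 to 39 when a library was left out, and 45 passed 10 CPM. Over all genes, 6608 passed 10 CPM, against 4017 passing 10 TPM. The related lists moved at that level: in CPM 10 bound proteins and chaperones and 5 control genes passed, shuttle and p97 genes passing were 2 (without replicate 1) to 6 when a library was left out, and the control genes passing were 1 to 3 when a library was left out and 2 with the mRNA length. The 5 differences between counterparts kept their sign under every alternative run.

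Class medians on the log2 scale moved by more than their SD as follows. In CPM they were 7.77 (alpha), 7.95 (beta), 8.16 (cap ATPases), 6.73 (other cap) and 6.75 (activators and inhibitor). With the mRNA length they were 7.75, 8.26, 7.85, 6.50 and 6.21 in the same order. With means in place of medians they were 6.54, 7.01, 7.53, 5.59 and 5.47, and 5.48 for assembly chaperones. The alpha and beta means include Psma8 and Psmb11, which averaged 0.57 and 0.42 on that scale. With copies added to parents the alpha median was 7.77. In that setting the counts of Psme2b went to Psme2, and Psme2b was dropped as a row of its own. The median of activators and inhibitor was then 4.49, over the same genes as without Psme2b (4.49). Causes of the moves were otherwise not tested. No paired analysis was possible because the labels give 1 group.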
